A study of Mus musculus with 14 samples.

Results

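The 42 genes described here drive the cell division cycle and copy the genome. They were taken from a list of symbols, each matched to 1 Ensembl gene among the 36047 genes of the deposited tables, and all 42 passed the filter on low counts in both tables. They were read by phase: 5 D-type cyclins and their kinases, 21 genes of the G1/S transition and DNA replication, and 16 genes of G2 and mitosis. RNA was sequenced from mouse embryoid bodies (EBs), which are aggregates of differentiating embryonic stem cells, at 3 days of a mesodermal differentiation: day 3, day 5 and day 10. The control cells of day 3 and day 5 are the line named iHA-Foxk1, and their titles also carry the letters ND. The day 10 control titles name no line. The other line is labelled Foxk1 KO, a knockout of this forkhead transcription factor. A further group at day 10 is Foxk1 KO with IWR1, a compound known as a tankyrase inhibitor that dampens Wnt/beta-catenin signalling. The labels give neither its dose nor when it was added. Each of the 7 groups has 2 libraries, 14 in all, and both lines were kept on irradiated mouse embryonic fibroblasts that were removed by plating before differentiation. Whether the KO line is 1 clone, and whether the libraries of a group are separate cultures, is not stated, so p-values measure the spread between these libraries, which may be technical.

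D-type cyclins are the cyclins made in response to growth signals. With Cdk4 or Cdk6 they begin to phosphorylate the retinoblastoma protein, which frees E2F transcription factors to turn on cyclin E, the MCM helicase and nucleotide synthesis genes for S phase. Later, cyclin B and Cdk1 take cells into mitosis, and a complex of MuvB with B-Myb and FoxM1 drives many mitotic genes through promoter elements named CHR, often beside CCAAT boxes. Pluripotent mouse cells cycle fast with a short G1 phase, and cycles lengthen as cells differentiate.

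To show the promoter elements of each phase, 5 upstream stretches are printed: they hold the elements of the G1/S genes (Cdc25a, Mcm6), of both groups (Cdk1) and of the mitotic genes (Ccnb1, Cdc20). Each is the 160 bases before the start site in RefSeq's GRCm38.p6 assembly, 5′ to 3′ on the gene's strand. Capitals mark E2F-type letters (TTTCCCGC, TTTCGCGC, TTTGCCGC or TTTGGCGC), CHR-type letters (TTTGAA, with the variants TTCGAA as well as TTTAAA, all searched in every promoter) and the box named CCAAT, on either strand, and matches that overlap run together. They lie at chr9:109875419-109875578 (Cdc25a, plus strand), chr1:128359706-128359865 (Mcm6, minus), chr10:69352913-69353072 (Cdk1, minus), chr13:100786487-100786646 (Ccnb1, minus) and chr4:118437344-118437503 (Cdc20, minus).
Cdc25a: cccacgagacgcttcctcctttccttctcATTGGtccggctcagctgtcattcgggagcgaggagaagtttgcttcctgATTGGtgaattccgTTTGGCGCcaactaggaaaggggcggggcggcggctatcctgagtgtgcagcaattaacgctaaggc
Mcm6: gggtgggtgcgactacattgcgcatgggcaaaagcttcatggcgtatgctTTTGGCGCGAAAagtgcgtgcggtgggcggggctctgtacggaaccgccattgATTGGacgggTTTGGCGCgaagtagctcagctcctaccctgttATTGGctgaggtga
Cdk1: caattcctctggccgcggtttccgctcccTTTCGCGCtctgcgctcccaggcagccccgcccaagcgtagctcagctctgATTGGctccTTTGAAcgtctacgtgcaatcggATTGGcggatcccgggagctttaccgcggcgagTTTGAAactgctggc
Ccnb1: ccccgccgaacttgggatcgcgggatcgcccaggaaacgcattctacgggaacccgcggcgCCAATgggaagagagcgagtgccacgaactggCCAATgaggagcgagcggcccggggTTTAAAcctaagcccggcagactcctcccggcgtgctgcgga
Cdc20: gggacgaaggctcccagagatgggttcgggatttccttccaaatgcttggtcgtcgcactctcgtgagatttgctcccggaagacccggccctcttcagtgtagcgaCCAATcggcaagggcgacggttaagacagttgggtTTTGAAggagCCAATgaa

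Of the 42 genes, 33 had a promoter in the table, with 35 promoters of 300 bases between them (250 bases before to 50 after the start). E2F-type letters stood in 8 of 17 G1/S promoters (47.1%: Cdc25a, Cdc6, Cdk2, Cdt1, Mcm3, Mcm5, Mcm6 and Mcm7), in 1 of 14 G2/M promoters (Cdk1) and in 2.26% of all 32851 promoters. CHR-type letters stood in 14 of 14 G2/M promoters, in 6 of 17 G1/S promoters and in 28.8% of all promoters. CCAAT stood in 13 of 14 G2/M and 12 of 17 G1/S promoters, against 37.4% of all. The 4 promoters of the D-type cyclin group held neither E2F-type nor CHR-type letters in these windows, and 1 held CCAAT. A match describes letters and is no evidence of binding, and the tables hold no measurement at the promoters.

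Libraries of days 3 and 5 held 10574194 to 11621032 counts and those of day 10 held 34466708 to 52747273, and the tables were fitted separately with 14430 and 17022 genes. Levels are CPM, the usual count scaled to library size, here with edgeR's TMM factors, and a gene is called when the Benjamini-Hochberg adjusted p of edgeR's quasi-likelihood test is under 0.05. Foxk1 read 86.3 and 76.4 CPM in the day 3 control and 16.2 and 16.5 in the KO, and 134 and 133 against 38.2 and 33.6 at day 5. At day 10 it read 65.0 and 80.1 CPM in the control, 71.3 and 41.8 in the libraries labelled Foxk1 KO and 26.4 and 52.9 in those labelled Foxk1 KO with IWR1, so its mRNA did not separate the labels there (KO against control, adjusted p = 0.722). Replicates at day 10 also differed by transcript length: the mean log2 level of long transcripts minus that of short ones, relative to the average library, was 0.01 and 0.60 in the control, 0.61 and -0.38 in the KO, and -0.84 and -0.003 with IWR1. In these bulk libraries, fewer cells of a type and less RNA per cell cannot be told apart.

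In the day 3 and day 5 EBs most cycle genes differed little between KO and control; Ccnd2 and Ccne1 at day 3, and the 3 D-type cyclins at day 5, had the largest called differences. At day 3, 10 of 42 members passed the test (3 higher, 7 lower; 23.8%), against 32.9% of all genes tested, 16% higher and 16.9% lower. At day 5 it was 18 of 42 (6 higher, 12 lower; 42.9%), against 43.5% of all, 21.9% higher and 21.7% lower. The median size of a member's log2 difference was 0.109 at day 3 and 0.139 at day 5, against 0.284 and 0.352 for all genes. For 38 and 35 of the 42 members the 95% interval of the difference lay within 1.5-fold in either direction, as it did for 45.7% and 41.5% of all genes. Under upper-quartile scaling the day 3 split was 5 higher and 4 lower, with 33.2% of all genes called. Where libraries are said below not to overlap at days 3 and 5, the share of all genes doing so was not counted. Genes described for a small p will mostly separate in this way, so it adds no support to their calls. Fitted on the libraries of that day alone, the counts were 20 at day 3 and 11 at day 5, with 53.7% and 32.1% of all genes called in those fits. The day 3 count was 6 without control replicate 2 or KO replicate 1, with 17% and 16.9% of all genes.

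**Figure D1:**
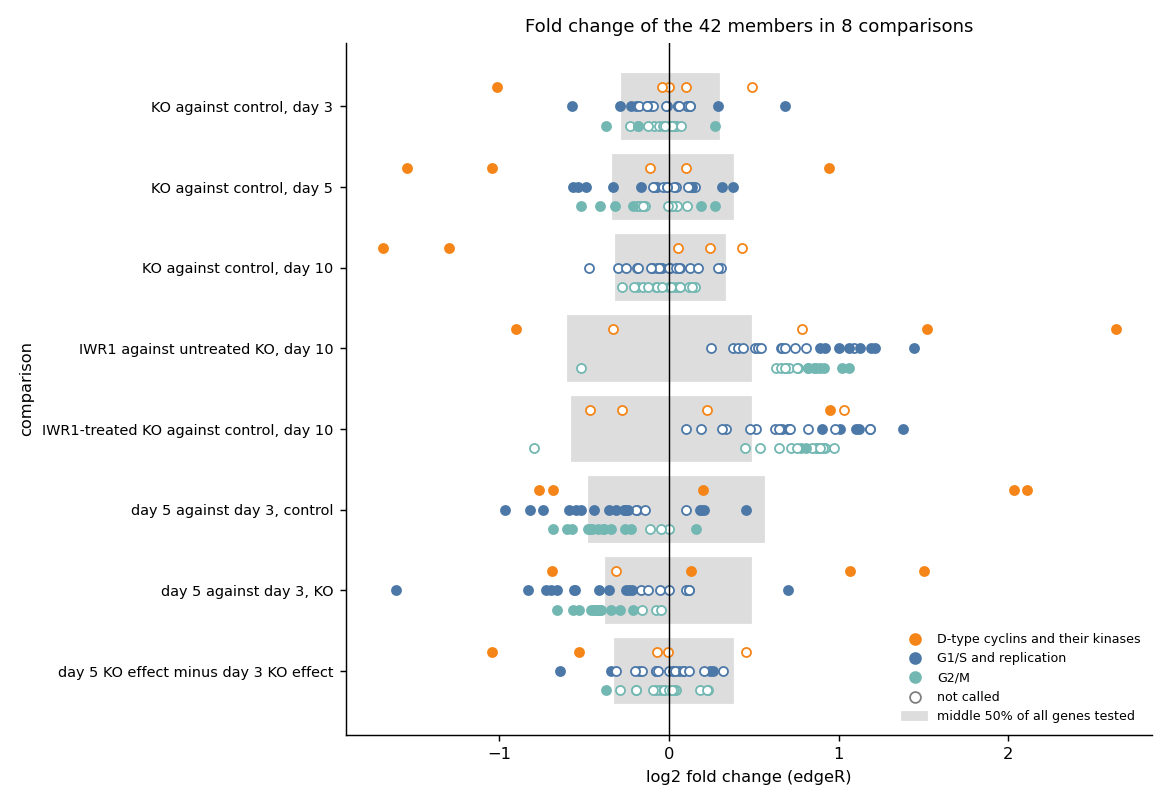
Log2 fold change (horizontal axis) of the 42 members in 8 comparisons, by phase; filled points passed the test and the grey band is the middle 50% of all genes tested. In the KO comparisons of days 3 and 5 most G1/S and G2/M genes lie near 0, and with IWR1 39 of 42 lie above 0 against the untreated KO.

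Ccnd2, the cyclin D2 gene (chr6:127125162-127152193 in mm10, minus strand), was the only member whose KO difference passed the test at all 3 days. At day 3 it read 50.4 and 49.5 CPM in the control and 22.2 and 27.1 in the KO, 2.02-fold lower (log2 fold change -1.02, SE 0.089, adjusted p = 3.76e-05). At day 5 it read 204 and 205 CPM in the control and 68.7 and 71.2 in the KO, 2.92-fold lower (log2 fold change -1.55, SE 0.078, adjusted p = 9.77e-07). Every KO library lay below both controls of its day, and the day 5 KO difference was larger than the day 3 one by a further -0.53 on the log2 scale (SE 0.12, adjusted p = 0.0107; 0.0534 without control replicate 2 of day 3). Between days 3 and 5 Ccnd2 rose 4.09-fold in the control (log2 fold change 2.03, SE 0.08, adjusted p = 1.56e-07) and 2.83-fold in the KO (log2 fold change 1.502, SE 0.087, adjusted p = 1.66e-06).

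At day 10 Ccnd2 read 396 and 399.7 CPM in the control, 175 and 149 in the libraries labelled KO and 419 and 511 in those labelled KO with IWR1. The untreated KO lay below every other day 10 library, 2.45-fold under the control (log2 fold change -1.29, SE 0.22, adjusted p = 0.0262). The IWR1 libraries lay 2.87-fold above the untreated KO (log2 fold change 1.52, SE 0.22, adjusted p = 0.0137), and against the control their difference was 0.22 (95% interval -0.29 to 0.74, adjusted p = 0.483). The day 10 KO call was lost without control replicate 1 (adjusted p = 0.183), control replicate 2 (0.17) or KO replicate 2 (0.13), whereas the IWR1 call held in all 15 alternatives.

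Ccnd1, the cyclin D1 gene (chr7:144929931-144939925, minus strand), lay on opposite sides of the control early and late. It read 198 and 203 CPM in the day 3 control and 281 and 283 in the KO. Both KO libraries lay above both controls, but the difference of 0.49 (95% interval -0.13 to 1.12) missed the threshold (adjusted p = 0.192; DESeq2 0.0191). At day 5 it read 120.4 and 115.5 CPM in the control and 286 and 168 in the KO, 1.92-fold higher (log2 fold change 0.94, SE 0.25, adjusted p = 0.0332). The KO libraries lay above both controls but differed from each other by 0.77 on the log2 scale, and the call was lost without control replicate 1 (adjusted p = 0.121) or 2 (0.13). From day 3 to day 5 Ccnd1 fell in the control (log2 fold change -0.77, SE 0.25, adjusted p = 0.0464), a call that failed on leaving out any single library of those groups (adjusted p 0.118 to 0.154), while the KO difference over time was -0.32 (adjusted p = 0.327).

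At day 10 the order was the reverse for the untreated KO: Ccnd1 read 116 and 112 CPM in the control, 39.0 and 31.7 in the libraries labelled KO and 215 and 225 with IWR1. The 3 groups did not overlap. The KO lay 3.22-fold below the control (log2 fold change -1.69, SE 0.20, adjusted p = 0.0105), which was lost without control replicate 1 (adjusted p = 0.0911) or 2 (0.0643). IWR1 libraries lay 6.21-fold above the untreated KO (log2 fold change 2.64, SE 0.20, adjusted p = 0.00538) in every alternative. Against the control they lay 1.93-fold higher (log2 fold change 0.95, SE 0.19, adjusted p = 0.0327), a call lost when any 1 library of these groups was left out (adjusted p 0.0538 to 0.243).

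Ccnd3, the cyclin D3 gene (chr17:47505051-47599691, plus strand), did not follow Ccnd2. It read 79.9 and 78.5 CPM in the day 3 control and 80.3 and 78.2 in the KO, a difference of 0.001 on the log2 scale (95% interval -0.34 to 0.34). At day 5 it read 346 and 338 CPM in the control and 193 and 139.7 in the KO, 2.06-fold lower (log2 fold change -1.04, SE 0.13, adjusted p = 0.00106). The KO overlapped the control at day 3 and lay wholly below it at day 5, and the change in the KO difference between the days was -1.04 (SE 0.19, adjusted p = 0.0101). It rose 4.32-fold from day 3 to day 5 in the control (log2 fold change 2.11, SE 0.14, adjusted p = 2.44e-05) and 2.10-fold in the KO (log2 fold change 1.07, SE 0.14, adjusted p = 0.000776).

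At day 10 Ccnd3 read 240.4 and 234 CPM in the control, 336 and 304 in the libraries labelled KO and 143 and 199.6 with IWR1. Here the KO was the highest group and IWR1 the lowest, with no overlap. The KO difference of 0.43 (SE 0.23) missed the threshold (adjusted p = 0.371). The IWR1 libraries lay 1.86-fold below the untreated KO (log2 fold change -0.90, SE 0.23, adjusted p = 0.047), a call that failed in 7 of 15 alternatives, among them without KO replicate 1 (adjusted p = 0.156), KO replicate 2 (0.0911) or IWR1 replicate 1 (0.174). Against the control the IWR1 difference was -0.47 (adjusted p = 0.204).

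To compare the D-type cyclins between genes, levels were divided by the longest coding transcript of each gene. It has 3740 bases for Ccnd1, 6330 for Ccnd2 and 2113 for Ccnd3. Which transcripts were in use was not tested, so the shares rest on this choice. Of the summed D-type cyclin level, Ccnd1 held 53.7% and 54.7% in the day 3 control and 64.5% and 64.7% in the KO. Its day 5 share was 14.1% and 13.8% in the control and 42.8% and 36.7% in the KO, while Ccnd3 held 71.8% and 71.7% in the control and 51.1% and 54.1% in the KO. At day 10 Ccnd1 held 15% and 14.7% in the control, 5.29% and 4.83% in the libraries labelled KO, and 30% and 25.6% with IWR1. With these lengths Ccnd3 was the largest share of every day 10 library, from 35.45% with IWR1 to 81.8% in the KO. In the IWR1 library at 35.45%, Ccnd2 held 34.59%. In CPM, Ccnd2 lay above Ccnd3 in the control and IWR1 libraries of day 10 and below it in the KO. Exons of Ccnd1 overlap those of LTO1 by 1100 bases, and exons of Ccnd3 those of Bysl by 361 bases, on the other strand, and whether counting used strand is not stated.

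Cdk4 and Cdk6, the kinase partners of these cyclins, did not pass the KO test at any day. Cdk4 read 647 and 654 CPM in the day 3 control and 620.5 and 642 in the KO, and 775 and 722 against 678 and 705 at day 5. At day 10 it read 725 and 609.6 CPM in the control, 649 and 933 in the libraries labelled KO and 1599 and 1131 with IWR1. The KO lay just below the control at days 3 and 5 and overlapped it at day 10, and both IWR1 libraries lay above the rest at log2 differences of 0.79 (SE 0.31, adjusted p = 0.126) from the KO and 1.03 (SE 0.31, adjusted p = 0.0827) from the control. Cdk4 rose from day 3 to day 5 by 0.20 in the control (adjusted p = 0.00398) and 0.13 in the KO (adjusted p = 0.0359). The control call held in all 13 alternatives and the KO call in 3 of them, being lost without either day 3 KO library (adjusted p = 0.237 and 0.0931) or KO replicate 2 of day 5 (0.156). Cdk4 exons overlap those of Tspan31 by 641 bases on the other strand.

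Cdk6 read 48.6 and 48.7 CPM in the day 3 control, 50.0 and 54.4 in the day 3 KO, 28.5 and 32.0 in the day 5 control and 36.2 and 28.7 in the day 5 KO. Its level dropped by 0.68 on the log2 scale with time in the control (adjusted p = 0.000765) and dropped by 0.69 in the KO (adjusted p = 0.000875). At day 10 it read 15.2 and 21.0 CPM in the control, 23.1 and 14.3 in the libraries labelled KO and 11.9 and 17.97 with IWR1. These groups overlapped, and the IWR1 difference of -0.33 from the KO did not pass the test (adjusted p = 0.521).

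**Figure D2:**
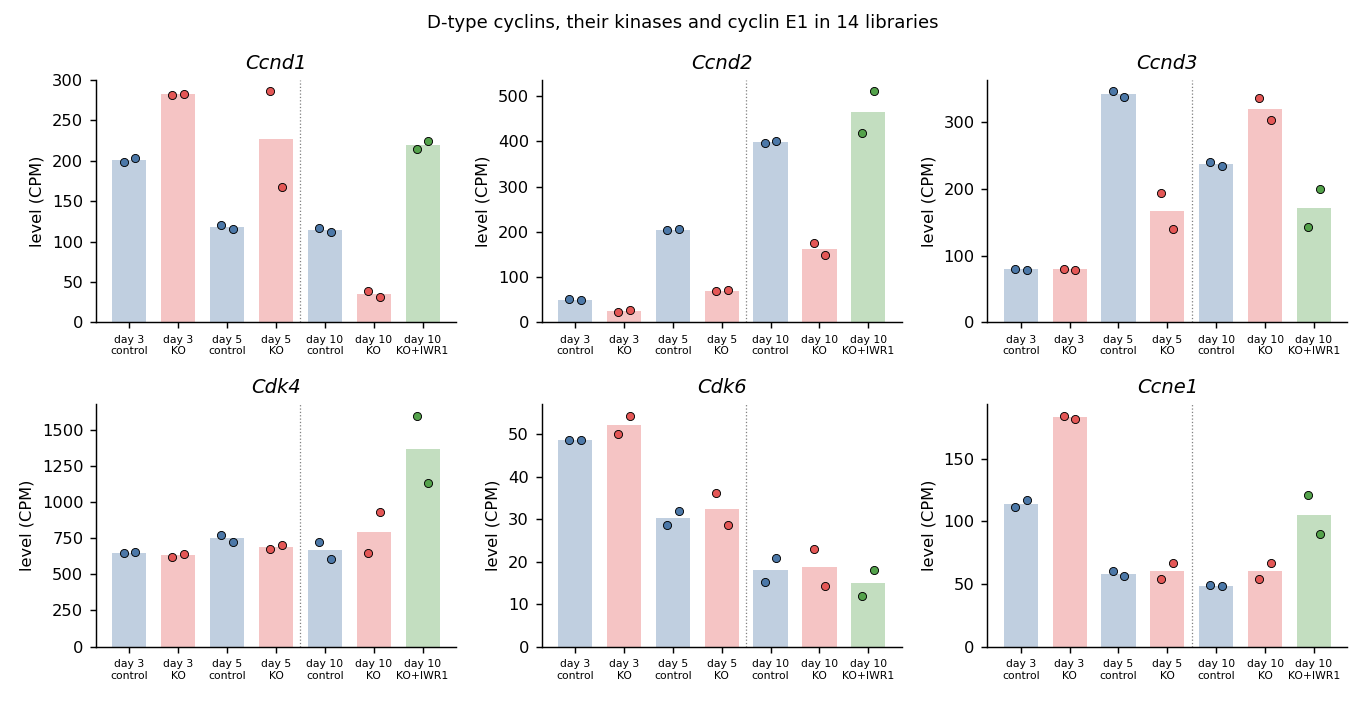
Level in CPM (vertical axis) of the 3 D-type cyclins, Cdk4, Cdk6 and Ccne1 in each group; bars are means, points the 2 libraries, and the dotted line parts the separately scaled tables. Ccnd2 is lower in the KO than in the control at each day, and among the day 10 groups Ccnd1 is highest with IWR1.

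Among the G1/S and replication genes, 6 of 21 passed the test at day 3 (2 higher, 4 lower) and 8 at day 5 (3 higher, 5 lower), shares of 28.6% and 38.1% against the 32.9% and 43.5% of all genes. Ccne1, the cyclin E1 gene that with Cdk2 starts S phase, showed the largest day 3 difference of the phase. It read 111 and 117 CPM in the control and 184.5 and 182 in the KO, 1.61-fold higher with no overlap (log2 fold change 0.68, SE 0.086, adjusted p = 0.000352). Its day 5 levels were 60.1 and 56.6 CPM in the control and 53.6 and 66.4 in the KO, which overlapped, and the KO difference had moved by -0.64 between the days (SE 0.13, adjusted p = 0.00588). E2f1, the E2F transcription factor on the list, read 39.5 and 36.6 CPM in the day 3 control and 28.2 and 23.1 in the KO, 1.49-fold lower with no overlap (log2 fold change -0.57, SE 0.11, adjusted p = 0.00343).

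Pcna, the sliding clamp of DNA polymerase, was higher in the KO at both early days. It read 283 and 289 CPM in the control and 349.8 and 350.2 in the KO at day 3 (log2 fold change 0.29, SE 0.05, adjusted p = 0.00213). The day 5 values were 202 and 220 against 273 and 274 (log2 fold change 0.38, SE 0.051, adjusted p = 0.000371). The libraries of each day did not overlap. Pcna may share reads with Pcna-ps2, a processed copy 99.2% identical, which took 15.3 and 13.03 CPM in the day 3 control, 0.177 and 0.169 in the KO, and 12.2 and 12.1 against 0.813 and 1.40 at day 5. With both summed, the Pcna difference was 0.22 at day 3 (adjusted p = 0.00763) and 0.30 at day 5 (adjusted p = 0.00108).

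Cdt1, which loads the MCM helicase onto origins, read 118 and 118 CPM in the day 5 control and 82.4 and 80.6 in the KO, 1.45-fold lower (log2 fold change -0.54, SE 0.059, adjusted p = 0.00012). Its day 3 values were 148 and 155 in the control and 127 and 137 in the KO. The KO was thus the lower group at both days, more so at day 5 (difference between days -0.34, SE 0.08, adjusted p = 0.016). That call on the difference between days held in 11 of 16 alternatives and was lost by DESeq2. Mcm7, a subunit of that helicase, read 296 and 307 CPM in the day 5 control and 359 and 391 in the KO, without overlap (log2 fold change 0.32, SE 0.05, adjusted p = 0.000919). The remaining called genes were Ccna2, Cdt1 and Cdc45, lower at day 3, and E2f1, Gins2, Gins1 and Ccna2, lower, and Mcm5, higher, at day 5. Of these day 3 and day 5 calls in the phase, those of Ccna2, Cdc45, Cdt1 (day 3), Gins1, Gins2, Ccna2 and Mcm5 (day 5) were lost on leaving out at least 1 single library.

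In G2/M, 3 of 16 genes passed the test at day 3 (1 higher, 2 lower) and 7 at day 5 (2 higher, 5 lower), shares of 18.8% and 43.8% against 32.9% and 43.5% of all genes. Ccnb2, a B-type cyclin, read 97.6 and 97.3 CPM in the day 3 control and 75.3 and 75.4 in the KO (log2 fold change -0.37, SE 0.055, adjusted p = 0.000912). Cdc20, which activates the anaphase-promoting complex, read 243 and 234 CPM in the control and 284.5 and 290.3 in the KO (log2 fold change 0.27, SE 0.048, adjusted p = 0.00261). Cenpa, the centromeric histone, read 134.5 and 137 CPM in the control and 121 and 118.5 in the KO (log2 fold change -0.18, SE 0.052, adjusted p = 0.0234). The Cenpa call failed on leaving out any 1 of the 4 day 3 libraries.

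At day 5 Mki67, the proliferation marker Ki-67, read 381 and 419 CPM in the control and 317.5 and 287 in the KO (log2 fold change -0.41, SE 0.062, adjusted p = 0.000729). Bub1b, of the spindle checkpoint, read 194 and 194 CPM in the control and 159 and 152 in the KO (log2 fold change -0.32, SE 0.051, adjusted p = 0.00102). Its partner Bub1 went the other way, at 127 and 132 CPM in the control and 154 and 158 in the KO (log2 fold change 0.27, SE 0.051, adjusted p = 0.00233). Thus 2 checkpoint genes lay on opposite sides of the control. Cdc25c, Cenpa and Ccnb2 were also lower and Cdc20 higher, and the day 5 calls of Cenpa, Cdc20 and Ccnb2 were lost on leaving out at least 1 single library.

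Marker genes of other cell types moved in the same libraries, where 32.9% of all genes were called at day 3 and 43.5% at day 5. The 7 streak and early mesoderm markers summed to 2380 and 2488 CPM in the day 3 control and 212.5 and 259.2 in the KO, and all 7 were lower. At day 5 the order was reversed, at 41.3 and 63.0 CPM against 166.3 and 330.4 in the KO, with 4 higher. The 8 neural markers summed to 80.6 and 74.8 CPM in the day 3 control and 137.6 and 132.8 in the KO, with 5 higher. The 8 pluripotency markers summed to 68.4 and 75.8 CPM in the day 5 control and 304.7 and 571.2 in the KO, with 7 higher. The 7 erythroid markers summed to 1195 and 1244 CPM against 114 and 29.5, with 6 lower, and the 8 fibroblast markers to 1566 and 1284 against 424 and 135, with 5 lower. The part of these shifts in the KO differences of the cycle genes was not tested.

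More of the cycle genes changed with time than with the KO, and most of them fell. From day 3 to day 5, 35 of 42 members passed the test in the control (8 higher, 27 lower; 83.3%), against 60.8% of all genes. In the KO it was 30 of 42 (4 higher, 26 lower; 71.4%), against 53.8% of all genes. Of all genes, 30.6% were higher and 30.2% lower in the control, and 28.3% higher and 25.5% lower in the KO. The members' median log2 difference was -0.29 in the control and -0.33 in the KO, against -0.009 and 0.026 for all genes. Under upper-quartile scaling the control split was 4 higher and 31 lower, with 62.1% of all genes called. The control and KO comparisons rest on different libraries, and the difference between them was called for 7 of 42 members (2 higher, 5 lower; 16.7%), against 24.2% of all genes, 13.4% higher and 10.8% lower. That count was 1 higher and 5 lower under DESeq2-type scaling, 0 and 8 under upper-quartile scaling, 4 by DESeq2, 14 without KO replicate 1 of day 5 (37.6% of all genes), 15 without KO replicate 2 (33.5%), and 3 or 4 without any other library of these days (13.7% to 16.6%). Ccnd3 and Ccne1 alone kept this call in each of those fits.

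All 6 genes of the MCM helicase fell in the control. Mcm7 went from 536 and 529.8 to 296 and 307 CPM, 1.77-fold lower (log2 fold change -0.82, SE 0.05, adjusted p = 1.37e-06). Mcm5 went from 423 and 433 to 247.5 and 264 CPM (log2 fold change -0.74, SE 0.048, adjusted p = 1.81e-06), and Mcm3 from 477 and 478 to 312.5 and 323 CPM (log2 fold change -0.59, SE 0.044, adjusted p = 4.37e-06). No day 5 library reached a day 3 library for any of these genes. In the KO, 5 of the 6 fell, and Mcm6 had a difference of -0.054 (adjusted p = 0.362). Mcm2 went from 499 and 504 to 306 and 300.3 CPM there (log2 fold change -0.72, SE 0.045, adjusted p = 2.41e-06), and Mcm5 from 439 and 448.5 to 285 and 277 (log2 fold change -0.66, SE 0.047, adjusted p = 5.52e-06). Mcm7 fell less in the KO than in the control (difference 0.26, SE 0.07, adjusted p = 0.0248), a call that held in 7 of 16 alternatives.

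Ccne1 had the largest drop of the KO time course, from 184.5 and 182 to 53.6 and 66.4 CPM, 3.05-fold (log2 fold change -1.61, SE 0.09, adjusted p = 1.29e-06). In the control it went from 111 and 117 to 60.1 and 56.6 CPM (log2 fold change -0.97, SE 0.091, adjusted p = 1.89e-05). Ccne2, the other cyclin E gene, went up in both lines, by 0.46 on the log2 scale in the control (SE 0.101, adjusted p = 0.0034) and 0.70 in the KO (SE 0.10, adjusted p = 0.000352). The G1/S counts were 4 higher and 13 lower of 21 in the control, where Tyms, Gins2 and Cdk2 were the other higher genes. In the KO they were 1 higher and 12 lower. These are shares called of 81% and 61.9%, against 60.8% and 53.8% of all genes. The Tyms, Gins2 and Cdk2 calls held in 8, 6 and 5 of 13 alternatives; each was lost under upper-quartile scaling and without either day 3 control library, Tyms also without control replicate 2 of day 5 (adjusted p = 0.177), Cdk2 without replicate 1 (0.347) and Gins2 without either.

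Mitotic genes fell as well, 12 of 16 in the control with 1 higher, and 13 of 16 in the KO with none higher. These are shares called of 81.2% in each line, against 60.8% of all genes in the control and 53.8% in the KO. Of all genes, 30.2% were lower in the control and 25.5% in the KO. Ccnb1, the cyclin B1 gene, went from 306 and 308.5 to 198.5 and 206 CPM in the control (log2 fold change -0.60, SE 0.044, adjusted p = 3.69e-06) and from 308 and 307 to 208 and 208 in the KO (log2 fold change -0.56, SE 0.044, adjusted p = 8.85e-06). Cdc20 went from 243 and 234 to 179 and 169 CPM in the control (log2 fold change -0.45, SE 0.049, adjusted p = 4.51e-05) and from 284.5 and 290.3 to 199 and 199 in the KO (log2 fold change -0.53, SE 0.049, adjusted p = 2.32e-05). Neither gene's days overlapped in either line.

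Bub1 fell in the control from 212 and 204 to 127 and 132 CPM (log2 fold change -0.69, SE 0.05, adjusted p = 4.06e-06). Bub1 fell less in the KO (difference 0.23, SE 0.07, adjusted p = 0.0431), but this call held in only 3 of 16 alternatives and was lost under other scalings and by DESeq2. Plk1, a mitotic kinase, went from 206 and 210.1 to 139 and 124 CPM in the KO (log2 fold change -0.66, SE 0.064, adjusted p = 3.14e-05). Mki67 went from 363 and 353.5 to 381 and 419 CPM in the control (log2 fold change 0.16, SE 0.061, adjusted p = 0.0459) and from 349 and 349.9 to 317.5 and 287 in the KO (log2 fold change -0.21, SE 0.062, adjusted p = 0.0169). The control call was lost in 6 of 13 alternatives, among them upper-quartile scaling (adjusted p = 0.2) and leaving out control replicate 1 (0.127) or 2 (0.206) of day 3 or 2 of day 5 (0.334). The KO call was lost without KO replicate 1 (0.0802) or 2 (0.088) of day 3. Its course differed between the lines by -0.37 (SE 0.09, adjusted p = 0.0137), a call that held in 11 of 16 alternatives.

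The summed level of each phase shows the same course by library. The 21 G1/S genes summed to 4657 and 4701 CPM in the day 3 control and 4729 and 4779 in the KO. At day 5 they summed to 3499 and 3627 CPM in the control and 3670 and 3548 in the KO. The 16 G2/M genes summed to 3332 and 3330 CPM in the day 3 control, 3217 and 3221 in the day 3 KO, 2572 and 2633 in the day 5 control, and 2583 and 2368 in the day 5 KO. The days did not overlap in either line.

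**Figure D3:**
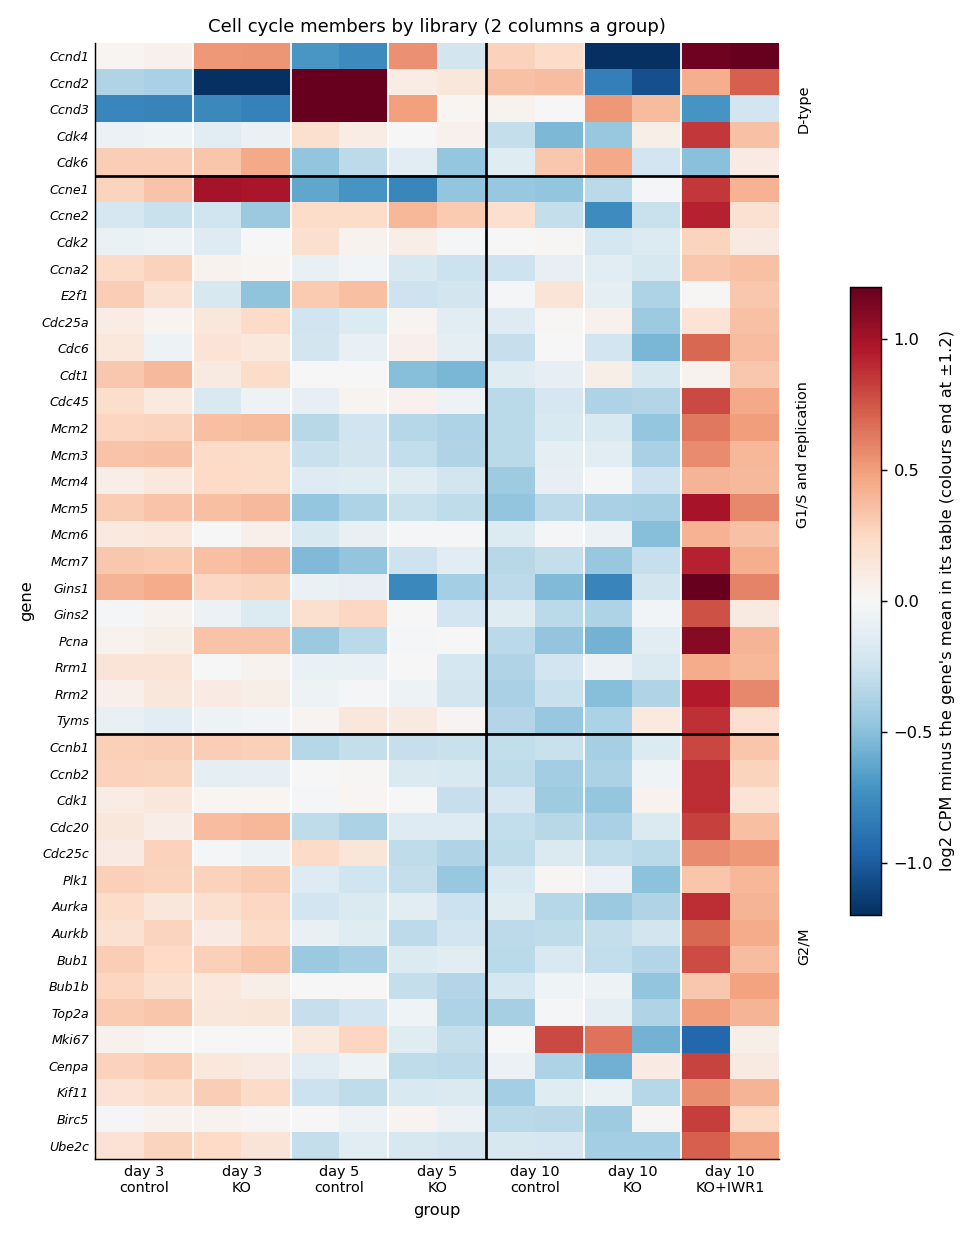
Log2 CPM of the 42 members in the 14 libraries, each gene centred on its mean within its own table, with colours ending at 1.2 above and below that mean. Most genes are higher at day 3 than day 5, and at day 10 most are highest in the 2 IWR1 libraries.

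At day 10, in the libraries labelled Foxk1 KO, the called members were 2 of 42, the D-type cyclins Ccnd1 and Ccnd2, both lower (4.76%), against 5.27% of all genes, 1.92% higher and 3.35% lower. In the G1/S and G2/M groups 0 of 37 genes passed edgeR's test. Of these, 0 had an unadjusted p under 0.05, against 3392 of all 17022 genes tested. DESeq2 called 2 members in all, and 1981 genes. Both KO libraries lay above both controls for 4 of 42 members and below them for 7, against 25.7% and 25.3% of all genes. The 21 G1/S genes summed to 2119 and 2249 CPM in the control and 2189 and 2170 in the KO, and the G2/M genes to 1632 and 1835 against 1721 and 1634. The 95% interval lay within 1.5-fold for 12 of 42 members (28.6%), against 8.57% of all genes, so for the other 30 a difference of that size was not excluded by the interval. No member was called without control replicate 1 or 2 (0.357% and 0.855% of all genes), and 1 without KO replicate 2 (1.58%).

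With IWR1 the cycle genes were higher than in the untreated KO at day 10. Of 42 members 17 passed the test (16 higher, 1 lower; 40.5%), against 13.9% of all genes, of which 5.77% higher and 8.08% lower. The median log2 difference was 0.77 for the members and -0.005 for all genes. Both IWR1 libraries lay above both KO libraries for 38 of 42 members, against 28.6% of all genes; Ccnd3 lay below, as did 30.2% of all genes, and Cdk6, Cdt1 and Mki67 overlapped. The G1/S genes summed to 4211 and 3444 CPM and the G2/M genes to 2959 and 2454 with IWR1. The number called was 2 without KO replicate 1 (5.35% of all genes), 3 without KO replicate 2 (6.02%), 2 without IWR1 replicate 1 (3.1%), 23 without IWR1 replicate 2 (17.2%) and 2 when only these groups were fitted (6.09%). DESeq2 called 29 members and 4229 genes. Only Ccnd1 and Ccnd2 kept their calls when each library was left out.

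In the G1/S group 8 of 21 were higher and none lower (38.1%, against 13.9% of all genes called). Differences over the phase ran from 0.25 to 1.44. Rrm2, a subunit of the reductase that makes deoxyribonucleotides, read 140.2 and 156 CPM in the KO and 388 and 298 with IWR1, 2.32-fold higher (log2 fold change 1.21, SE 0.22, adjusted p = 0.0197). Mcm5 read 136 and 136 CPM and 354 and 266 (log2 fold change 1.19, SE 0.22, adjusted p = 0.0207). Cdc45, which joins the helicase at firing origins, read 26.8 and 27.2 CPM and 60.3 and 47.7 (log2 fold change 1.00, SE 0.20, adjusted p = 0.0263). None overlapped. The other called genes were Gins1, Mcm7, Mcm2, Cdc6 and Pcna. Pcna-ps2 read 34.6 and 32.2 CPM in the control, 29.1 and 35.2 in the KO and 94.4 and 57.9 with IWR1. It thus overlapped between KO and control, unlike at days 3 and 5. Whether the label KO stands for the same cells at each day was not tested.

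In G2/M 6 of 16 were higher and none lower (37.5%, against 13.9% of all genes called). Ube2c, the ubiquitin carrier of the anaphase-promoting complex, read 72.3 and 72.7 CPM in the KO and 158 and 136 with IWR1 (log2 fold change 1.02, SE 0.18, adjusted p = 0.0197). Aurka, a centrosome kinase, read 53.4 and 56.6 CPM and 134 and 95.9 (log2 fold change 1.06, SE 0.22, adjusted p = 0.031). Cdc25c, the phosphatase that activates Cdk1, read 16.9 and 16.5 CPM and 30.7 and 29.8 (log2 fold change 0.86, SE 0.19, adjusted p = 0.0325). None of the 3 overlapped, and Aurkb, Bub1 and Cdc20 were also called. Mki67 stood apart at 254 and 109 CPM in the KO, 84.2 and 169 with IWR1 and 160.5 and 279.8 in the control. Its 2 KO libraries lay further apart than the group means. The longest coding transcript of Mki67 has 10061 bases. That of Cdk6, which also overlapped between IWR1 and KO, has 11525, and these are the longest of the members. Day 10 replicates differed by transcript length, and the part of length in the Mki67 values was not tested.

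Against the control the libraries labelled KO with IWR1 had 10 of 42 members higher and 0 lower (23.8%), against 9.12% of all genes, 2.99% higher and 6.13% lower. This comparison shares its IWR1 libraries with the one above, so the values are not separate evidence. Both IWR1 libraries lay above both controls for 37 of 42 members, against 33.6% of all genes, and below them for Ccnd3 alone, against 33.5%. Mcm5 read 129 and 144 CPM in the control (log2 fold change 1.19, SE 0.22, adjusted p = 0.024), Rrm2 153 and 166 (log2 fold change 1.10, SE 0.21, adjusted p = 0.0289), and Ccne1 49.0 and 48.3 against 121 and 89.8 with IWR1 (log2 fold change 1.12, SE 0.23, adjusted p = 0.034). In G2/M, Aurkb, the chromosomal passenger kinase, read 57.2 and 57.3 CPM against 114 and 96.5 with IWR1 (log2 fold change 0.88, SE 0.18, adjusted p = 0.0369). Ube2c read 84.0 and 83.3 CPM in the control (log2 fold change 0.81, SE 0.18, adjusted p = 0.0424), and Cdc25c 16.8 and 18.4 (log2 fold change 0.78, SE 0.19, adjusted p = 0.0498). In all of these the IWR1 libraries were the higher ones without overlap. No called member kept its call in every fit that left out 1 library: 0 were called without control replicate 1 (1.59% of all genes), control replicate 2 (1.99%) or IWR1 replicate 1 (3.26%), and 16 without IWR1 replicate 2 (12.1%). DESeq2 called 25 members and 3402 genes.

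Transcript length and cell type markers moved with the IWR1 comparisons. Short transcripts had a median log2 difference of 0.29 from the untreated KO and long ones -0.30, and from the control 0.46 and -0.37. With the length score as a covariate, 37 of 42 members were called against the KO (36 higher, 1 lower) and 29 against the control, as were 33.8% and 16.9% of all genes. The 8 neural markers summed to 31.2 and 38.2 CPM in the KO and 293 and 352 with IWR1. All 8 were called higher than in the untreated KO, against 5.77% of all genes. The 8 fibroblast markers summed to 7797 and 8418 CPM in the control, 26490 and 20610 in the KO and 1319 and 3524 with IWR1. With IWR1 6 were lower and 1 higher than in the untreated KO, against 8.08% and 5.77% of all genes. Compared with the control 2 were lower, against 6.13% of all genes. The 8 cardiomyocyte markers summed to 4254 and 3739 CPM in the control, 72.1 and 159 in the KO, and 353 and 300 with IWR1. All 8 were lower in the KO than in the control, against 3.35% of all genes. With IWR1 3 were higher than in the untreated KO (5.77% of all genes) and 7 lower than in the control (6.13%). No marker list had a gene at 0 at day 10, and the part of cell makeup in the cycle gene differences was not tested.

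CDK inhibitors oppose the cyclin kinases. Of 7 genes, 1 was higher and 1 lower in the KO at day 3, and 3 were higher and 2 lower at day 5. These are shares of 28.6% and 71.4%, against 32.9% and 43.5% of all genes. At day 10 edgeR called 0 in the KO, against 5.27% of all genes. An unadjusted p under 0.05 was found for 2, against 3392 of all 17022 genes tested. Cdkn1a, the p21 gene that p53 induces, read 48.8 and 60.9 CPM in the day 5 control and 205 and 180.4 in the KO (log2 fold change 1.81, SE 0.10, adjusted p = 3.84e-06). Its day 3 values were 55.9 and 59.0 in the control and 79.2 and 76.7 in the KO (log2 fold change 0.44, SE 0.10, adjusted p = 0.0122). No KO library overlapped its control at either day. At day 10 Cdkn1a read 197.5 and 162 CPM in the control, 182 and 172 in the libraries labelled KO and 77.2 and 79.8 with IWR1, which lay below the rest (log2 fold change -1.17, SE 0.19, adjusted p = 0.0172).

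Cdkn1c, the p57 gene, read 28.7 and 28.5 CPM in the day 3 control and 696 and 563 in the day 5 control (log2 fold change 4.46, SE 0.23, adjusted p = 3.48e-05). In the KO it went from 22.3 and 22.1 to 132 and 88.6 (log2 fold change 2.31, SE 0.23, adjusted p = 0.000605). The day 5 KO libraries lay far below the day 5 control (log2 fold change -2.51, SE 0.21, adjusted p = 0.000423). Cdkn1b, the p27 gene, was lower in the KO at day 3, at 73.0 and 75.4 CPM against 52.2 and 44.7 (log2 fold change -0.62, SE 0.095, adjusted p = 0.00119). Day 5 gave 81.4 and 74.6 against 48.0 and 54.4 (log2 fold change -0.61, SE 0.095, adjusted p = 0.000864). Cdkn2a and Cdkn2b, of the Ink4 family, were under 6 CPM in all early libraries. Both were higher in the KO at day 5, Cdkn2a at 0.495 and 0.894 against 4.51 and 5.32 CPM (log2 fold change 2.80, SE 0.45, adjusted p = 0.00102) and Cdkn2b at 0.396 and 0.596 against 4.61 and 4.28 (log2 fold change 3.13, SE 0.504, adjusted p = 0.00101). Against the untreated KO at day 10, IWR1 libraries were lower in Cdkn2b (log2 fold change -1.48, SE 0.30, adjusted p = 0.0288).

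**Figure D4:**
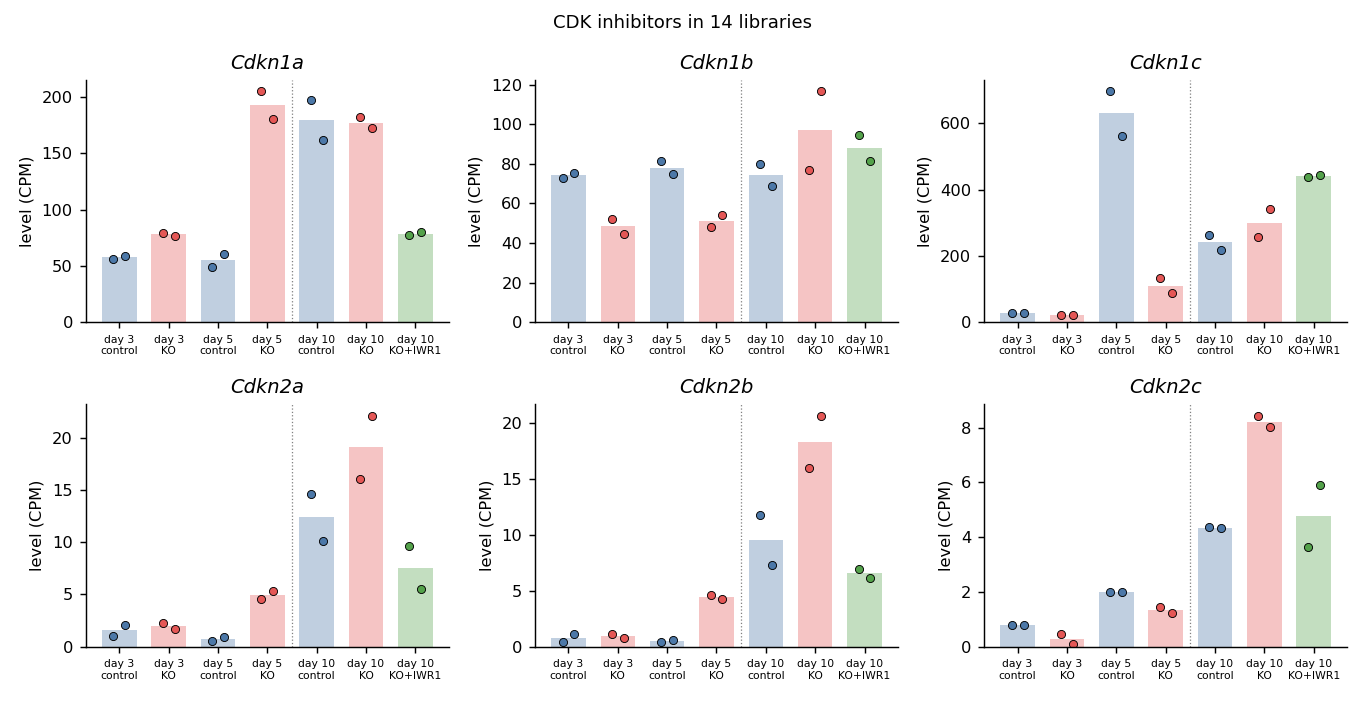
Level in CPM (vertical axis) of 6 CDK inhibitor genes by group; bars are means, points the 2 libraries, and the dotted line parts the separately scaled tables. Cdkn1a is higher in the KO than the control at day 5, and Cdkn1c lower.

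The other companion lists give the wider pathway. Of 37 further replication genes, 8 were higher and 6 lower in the KO at day 3, and 7 and 8 at day 5, shares of 37.8% and 40.5% against 32.9% and 43.5% of all genes. At day 10 edgeR called 0 in the KO, against 5.27% of all genes. An unadjusted p under 0.05 was found for 0, against 3392 of all 17022 genes tested. Lig1, the replicative DNA ligase, had the smallest p at day 3 (log2 fold change -0.50, SE 0.047, adjusted p = 5.59e-05). Over time 29 fell in each line, with 2 higher in the control and 1 in the KO, against 30.2% and 25.5% of all genes lower, led by Dut, the dUTPase (log2 fold change -1.11, SE 0.055, adjusted p = 4.25e-07) in the control. With IWR1 11 were higher than in the untreated KO and none lower (29.7%, against 13.9% of all genes; median 0.77), among them Mcm10 (log2 fold change 1.06, SE 0.22, adjusted p = 0.0294) and Pola2, of DNA polymerase alpha (log2 fold change 0.83, SE 0.18, adjusted p = 0.0305).

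Of 38 further mitotic genes, 3 were higher and 9 lower in the KO at day 3, and 3 and 10 at day 5, shares of 31.6% and 34.2% against 32.9% and 43.5% of all genes. Pttg1, the securin gene, was higher at day 3 (log2 fold change 0.81, SE 0.097, adjusted p = 0.00027), and Cdc25b, another Cdk1 phosphatase, was lower at day 5 (log2 fold change -0.92, SE 0.11, adjusted p = 0.000181). With time 18 fell and 5 rose in the control, and 24 fell and 3 rose in the KO, shares called of 60.5% and 71.1% against 60.8% and 53.8% of all genes. With IWR1 6 were higher than in the untreated KO and none lower (15.8%, against 13.9% of all genes), led by Cdca8 of the chromosomal passenger complex (log2 fold change 0.98, SE 0.18, adjusted p = 0.0205).

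Of 18 pocket protein, E2F and MuvB genes, 3 were higher and 2 lower at day 3, and 5 higher and 2 lower at day 5, shares of 27.8% and 38.9% against 32.9% and 43.5% of all genes. Rb1, the retinoblastoma gene, was higher in the KO at day 3 (log2 fold change 0.72, SE 0.14, adjusted p = 0.00326) and at day 5 (log2 fold change 0.98, SE 0.14, adjusted p = 0.000426). With IWR1, E2f2 was higher (log2 fold change 1.02, SE 0.24, adjusted p = 0.0377) and Rbl2, the p130 gene, lower (log2 fold change -1.16, SE 0.27, adjusted p = 0.0384) than in the untreated KO. They were the only genes of this list called there (11.1%, against 13.9% of all genes). Of 18 ubiquitin ligase genes, 1 was higher and 1 lower at day 3 and 4 were lower at day 5 (11.1% and 22.2%, against 32.9% and 43.5%). Against the untreated KO, 1 of these 18 was called with IWR1 (5.56%, against 13.9% of all genes). It was Fbxo5, the inhibitor of the anaphase-promoting complex, which was higher (log2 fold change 0.84, SE 0.20, adjusted p = 0.0427).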

How the data were processed

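Bulk RNA from 14 libraries was poly(A) selected and sequenced paired-end, per the labels' protocols. The authors deposited estimated counts per gene as whole numbers in 2 tables, made with kallisto 0.46.2 on mm10 per the submitters' processing notes, with annotation release and transcript summing not given in the sources used here. Symbols and positions come from GENCODE vM21, and promoters from RefSeq's GRCm38.p6 table. Genes were filtered with filterByExpr, scaled by TMM and tested with edgeR 4.0.16 in R 4.3.3 (robust quasi-likelihood test, two-sided, Benjamini-Hochberg over all genes tested, threshold 0.05), with 1 fit per table: 8 libraries and 4 residual degrees of freedom early, 6 and 3 late. DESeq2 1.42.0, other scalings, filters, library sets, the replicate number as a block and pseudogene sums were alternatives. Processed copies were found with blastn 2.17.0. The fitting code was tested on simulated data.

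The members and lists were chosen with earlier results of these data known. Besides the 5 genes of the D-type group, up to 3 called members of each phase and comparison with the smallest unadjusted p are given with all library values, and up to 2 per companion list; Cdkn1b, Cdkn2a and Cdkn2b at day 5, Mki67 and Cdc25c beyond that rule were chosen after their values were seen. Exons of 12 members overlap a gene on the other strand, most of all those of Gins2, which share 2758 bases with Gse1. In all, 11 processed pseudogenes were matched to 8 members. Levels of the 2 tables were scaled separately, so no test spans them. The labels mention no molecular identifiers, so reads copied by PCR may be counted more than once.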

Additional observations from a re-analysis of the deposited data

Results flagged for a closer look

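For 7 of 42 members the KO difference at day 5 was not the one at day 3, by edgeR's quasi-likelihood test of the difference between the days. That is 16.7% of the members, against 24.2% of all genes tested. On the log2 scale the day 5 KO difference minus the day 3 one was -0.53 for Ccnd2 (adjusted p = 0.0107), -1.043 for Ccnd3 (0.0101), -0.644 for Ccne1 (0.00588), -0.34 for Cdt1 (0.016) and -0.37 for Mki67 (0.0137). It was 0.26 for Mcm7 (adjusted p = 0.0248) and 0.228 for Bub1 (0.0431). The Ccnd3 and Ccne1 calls alone were kept when each of the 8 libraries was left out in turn.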

How the results depend on the processing

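Of 129 called member values, 71 kept their call under every alternative run, 58 lost it in at least 1 and 0 changed direction. Libraries were deeper at day 10, but varied more there (biological coefficient of variation 0.248, against 0.0915 early).

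Fitting only the libraries compared gave 20 members called at day 3, 11 at day 5 and 2 for IWR1 against the untreated KO. DESeq2 called 29 in that IWR1 comparison, 25 for IWR1 against control and 4 for the change of the KO difference between days. Over all genes it called 4229, 3402 and 2313. For IWR1 against control, no filter gave 22 (12.6% of all genes) and a filter of 5 CPM gave 6 (7.54%). With the transcript length score as a covariate, chosen after seeing the data, 4 were called for the day 10 KO, 37 for IWR1 against the KO and 29 for IWR1 against control. Shares of all genes moved too, to 19.9%, 33.8% and 16.9% in the length fits and to 53.7%, 32.1% and 6.09% with only the libraries compared. The causes of these shifts were not tested.

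Leaving out 1 library, where the lone library left is assumed to vary like the other groups, gave 6 to 7 members called at day 3, 0 to 2 for the day 10 KO, 2 to 23 for IWR1 against the KO, 0 to 16 for IWR1 against control, and 3 to 15 for the change between days. Some uncalled differences changed sign there: Ccnd3 at day 3 ranged from -0.016 to 0.019, Cdk6 at day 5 from -0.08 to 0.247, Cdk4 in the day 10 KO from -0.038 to 0.443, Cdk6 in the day 10 KO from -0.375 to 0.357, Cdk6 for IWR1 against the KO from -0.659 to 0.083, and Cdk6 between days from -0.181 to 0.123. Cdk6 was also -0.003 in the day 10 KO under upper-quartile scaling, and with the length covariate 0.066 for IWR1 against the KO and 0.229 against control.

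With the replicate number as a block (replicate block), 1 member was called for the day 10 KO (3.59% of all genes). For IWR1 the count was 2 against the KO (7.24%) and 0 against control (5.57%). The count was 10 in the day 3 KO (31.7%), 18 in the day 5 KO (42.5%) and 31 in the control course (59.9%). In the KO course it was 28 (52.7%), and for the change between days 6 (23.4%). Deviations of same-numbered libraries correlated at -0.022 to 0.05 early. At day 10 they correlated at 0.242 between control and IWR1, and the KO numbers ran against both (-0.297 and -0.322). With the day 10 KO numbers swapped, added after seeing the data, the block called 40 for IWR1 against the KO and 36 against control, with 42.7% and 42.2% of all genes called.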
